A study of Homo sapiens with 9 samples.

Results

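The genes described here were those with their highest RNA level in 786-M1A, a metastatic derivative of the clear cell renal cell carcinoma (ccRCC) line 786-O, among 3 cell lines of renal origin. For each gene, counts were divided by the total of the library to give counts per 1000000 (CPM), and the CPM was averaged over the 3 libraries of each line. A gene was kept where its mean count in 786-M1A was at least 50, where its mean CPM in 786-M1A was more than 2-fold that of both 786-O and HK2, and where at least 1 HK2 library held more than 10 counts. *PDGFRB*, *GALNT5*, *CXCR4*, *LTBP1* and *ALDH1L2* were left out by name, and 2 of these 5 (*PDGFRB* and *LTBP1*) met the other conditions. The rule left 75 of the 28395 genes in the count table. Because the levels in 786-M1A, 786-O and HK2 chose the genes, the differences of 786-M1A from the other lines are given as a description, with no test. The requirement on HK2 removed 33 further genes that met all the other conditions.

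ccRCC arises from the proximal tubule of the kidney, and most of these tumors lose the function of *VHL*, whose product marks the hypoxia-inducible factors (HIFs) for degradation. 786-O cells lack functional VHL and accumulate HIF2A, so genes such as *EGLN3* and *VEGFA* are transcribed in them at normal oxygen. A cancer cell that leaves its primary site has to loosen its contacts, cross matrix and signal in a foreign tissue, and the products that serve these steps include secreted ligands, matrix proteins, proteases, adhesion molecules and their regulators.

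The study compared HK2, an immortalized line from normal proximal tubule, 786-O, from a primary ccRCC, and 786-M1A, which was recovered from lung metastases that formed after 786-O cells were injected in vivo. All 3 lines were grown in Plasmax, a medium with the nutrient composition of human plasma, and the labels name no drug or genetic change. There were 3 libraries of each line, 9 in all, and the labels do not say whether they came from separate cultures. A legend of the study describes its RNA-seq counts as coming from independent cultures, and its methods describe 5 replicate dishes plated on the day before extraction. How the 3 libraries of a line relate to those dishes is not given. The p-values measure the spread between these libraries. 786-M1A is a single derivative of a single tumor line, and HK2 came from another donor, so differences of metastatic origin, of passage and of the line cannot be told apart. Differences between lines are given as log2 fold changes from 1 edgeR quasi-likelihood fit over all 9 libraries, each written ± its standard error (SE), and the test took genes whose counts averaged 50 or more across the 9 libraries. A gene was called when its Benjamini-Hochberg adjusted p was under 0.05. Of the 75 genes, 65 were tested, and for the other 10 log2 fold changes came from the same fit without that filter.

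The libraries held between 30212291 and 45362428 counts, and the biological coefficient of variation of the fit was 3.93%. Of 12 kidney lineage markers, 7 or 8 were over 1 CPM in each line, and their summed level was 1299 to 1385 CPM in HK2, 794 to 818 in 786-O and 584 to 602 in 786-M1A, although *LRP2*, the megalin receptor of the proximal tubule, was at 0 in all 9 libraries. Of 10 leukocyte markers, *PTPRC* and *CD3E* were at 0 in every library, and the sum ranged from 162 to 165 CPM in 786-O and from 199.5 to 207 in 786-M1A (195 to 199 in HK2). In HK2 this sum was mostly *CD74* (131 CPM) and *CD68* (52.3), with *NCAM1*, also a neural marker, at 0.506. In 786-O and 786-M1A its largest part was *NCAM1* (104 and 157 CPM), with *CD68* at 27.1 and 34.9 and *CD74* at 24.7 and 7.62. The 9 endothelial markers summed to at most 7.74 CPM in any library. The 8 fibroblast markers summed to 75.7 to 84.4 CPM in HK2, 283 to 348 in 786-O and 20 to 23.5 in 786-M1A, with *PDGFRA* at 0 in both 786 lines. Most of this sum was *COL1A1*, at 55.1, 292 and 15.9 CPM in HK2, 786-O and 786-M1A, followed by *LUM*. The 8 neural and neuroendocrine markers summed to 316 to 335 CPM in HK2, 453 to 485 in 786-O and 656 to 709.6 in 786-M1A, with *SOX10* and *STMN2* at 0 throughout. In 786-M1A this sum came mostly from *TUBB3* (454 CPM), *NCAM1* (157) and *ENO2* (62.4). *CHGB* went the other way, with 4.36 CPM in HK2 and 0 in 786-M1A, and *CHGA* was also at 0 in 786-M1A.

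The 75 genes took 0.140% to 0.143% of all counts in HK2, 0.234% to 0.241% in 786-O and 0.718% to 0.734% in 786-M1A. Their fold over 786-O ran from 2.01 to 26.7, with a median of 2.90, and their fold over HK2 ran from 2.07 to 1518, with a median of 5.85. At least 4-fold separated 786-M1A from 786-O for 21 genes and from HK2 for 44 genes, and from both for 17. In 786-M1A the mean level ran from 1.34 to 1898 CPM with a median of 14, and 47 genes were over 10 CPM there. In HK2, 35 of the genes were under 1 CPM on average and 14 had fewer than 20 counts in every library, so that their folds over HK2 rest on few reads. The coefficient of variation within a line, as the median over the genes, was 13.9% for HK2 (4.31% over all genes tested), 7.71% for 786-O (3.88%) and 5.10% for 786-M1A (4.69%). Every 786-M1A library lay above every library of both other lines for all 75 genes, an order that holds for 14.6% of all genes tested and that the 2-fold rule largely fixes here. In RNA from whole cultures, a higher level in every cell and a larger share of cells with the transcript cannot be told apart.

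**Figure D1:**
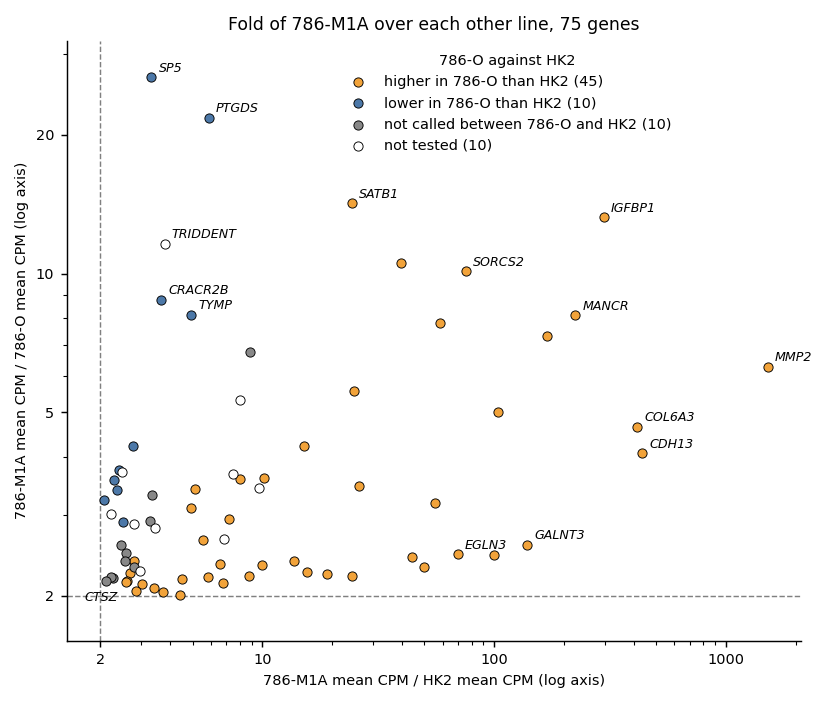
Mean CPM in 786-M1A divided by that in 786-O (vertical, log axis) against the same divided by that in HK2 (horizontal, log axis), 1 point per gene, coloured by the result of 786-O against HK2. The dashed lines mark the 2-fold limits of the rule, and genes higher in 786-O than in HK2 run to the right, up to *MMP2* at 1518-fold over HK2.

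At the 2-fold limit against 786-O, the genes just inside were *RBM24* (2.01-fold), *SLCO4A1* (2.04-fold) and *GATD1-DT* (2.05-fold), and those just outside were *ATOH8* (1.996-fold), *FRMD4A* (1.98-fold) and *MEGF6* (1.97-fold). At the limit against HK2, *G0S2* (2.07-fold), *CTSZ* (2.11-fold) and *FHAD1* (2.22-fold) were just inside, and *ZNF570* (1.99-fold), *XKR9* (1.82-fold) and *CARD9* (1.79-fold) just outside. The lowest mean counts in 786-M1A were those of *TRIDDENT* (51.7), *AKR1B10* (56.3) and *ST8SIA5* (64.7), and below the limit came *KIAA1755* (45.3), *ACTL10* (44.3) and the gene with NCBI identifier 101928422 (41.3).

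The rule set no threshold between 786-O and HK2. Their contrast asks how each gene stood in the parental tumor line beside the line from normal tubule. The levels of both lines were still used by the rule. It bounds both lines by the 786-M1A level and asks for reads in HK2 but not in 786-O. In addition, 786-O is the parent of 786-M1A. The selection can thus shape the split of the calls, which is given as a description. Of the 65 genes tested, 45 were higher in 786-O than in HK2, 10 were lower and 10 did not pass, beside 41.6% higher and 42.6% lower (84.2% in either direction) of the 12695 genes tested. For 15 of the 65 the 6 libraries of HK2 and 786-O averaged under 50 counts, so that they entered the test through 786-M1A. These were *SATB1*, *SLC6A9*, *PTGDS*, *APLN*, *PRIMA1*, *TCAF2*, *SP5*, *MPP4*, *MUC12*, *HOXD1*, *LUCAT1*, *PRDM8*, *MUC12-AS1*, *CCDC88B* and *GATD1-DT*, of which 9 were higher, 2 (*PTGDS* and *SP5*) were lower and 4 did not pass, and among the other 50 genes 36 were higher, 8 lower and 6 did not pass. The median log2 fold change of all 75 genes was 0.90 (1.09 over the 65 tested), and that of all genes tested was -0.01. The values spanned -2.97 (*SP5*) to 7.94 (*MMP2*). The 786-O and HK2 libraries did not overlap for 61 of the 75 genes, and for 55 of the 65 tested (84.6%), a share close to the 85.3% of all genes tested. The mean level was lowest in HK2 for 59 of the genes and lowest in 786-O for 16.

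**Figure D2:**
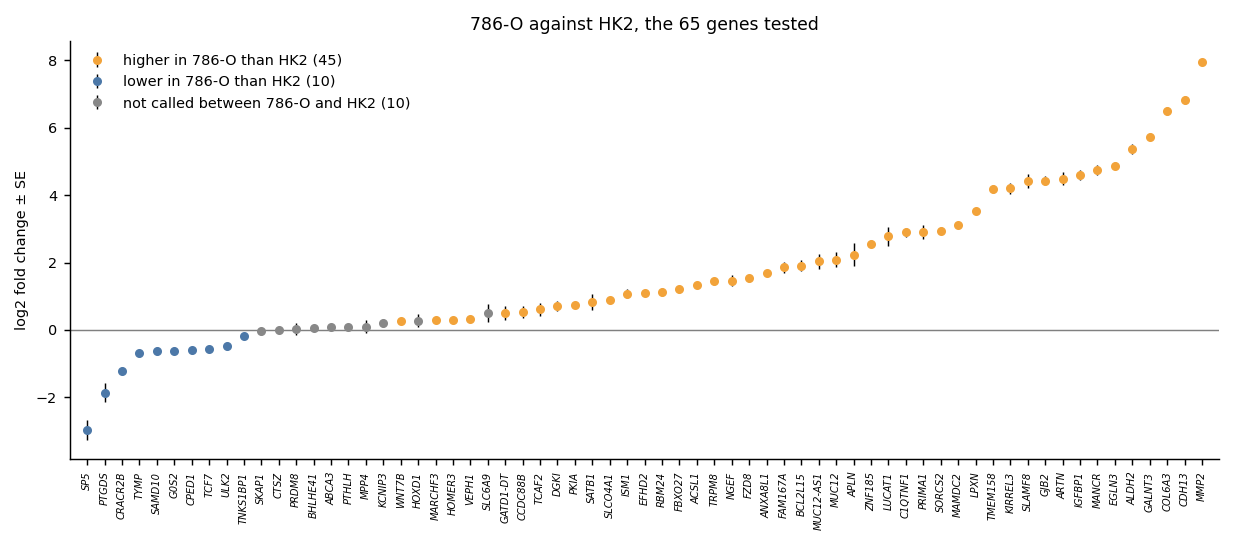
Log2 fold change of 786-O against HK2 (vertical, points with SE bars) for the 65 genes tested, in rank order, coloured by call. A total of 45 genes lie above 0 past the threshold, up to 7.94 for *MMP2*, and 10 lie below, down to -2.97 for *SP5*. Of the 65 genes, 15 entered the test through 786-M1A.

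**Figure D3:**
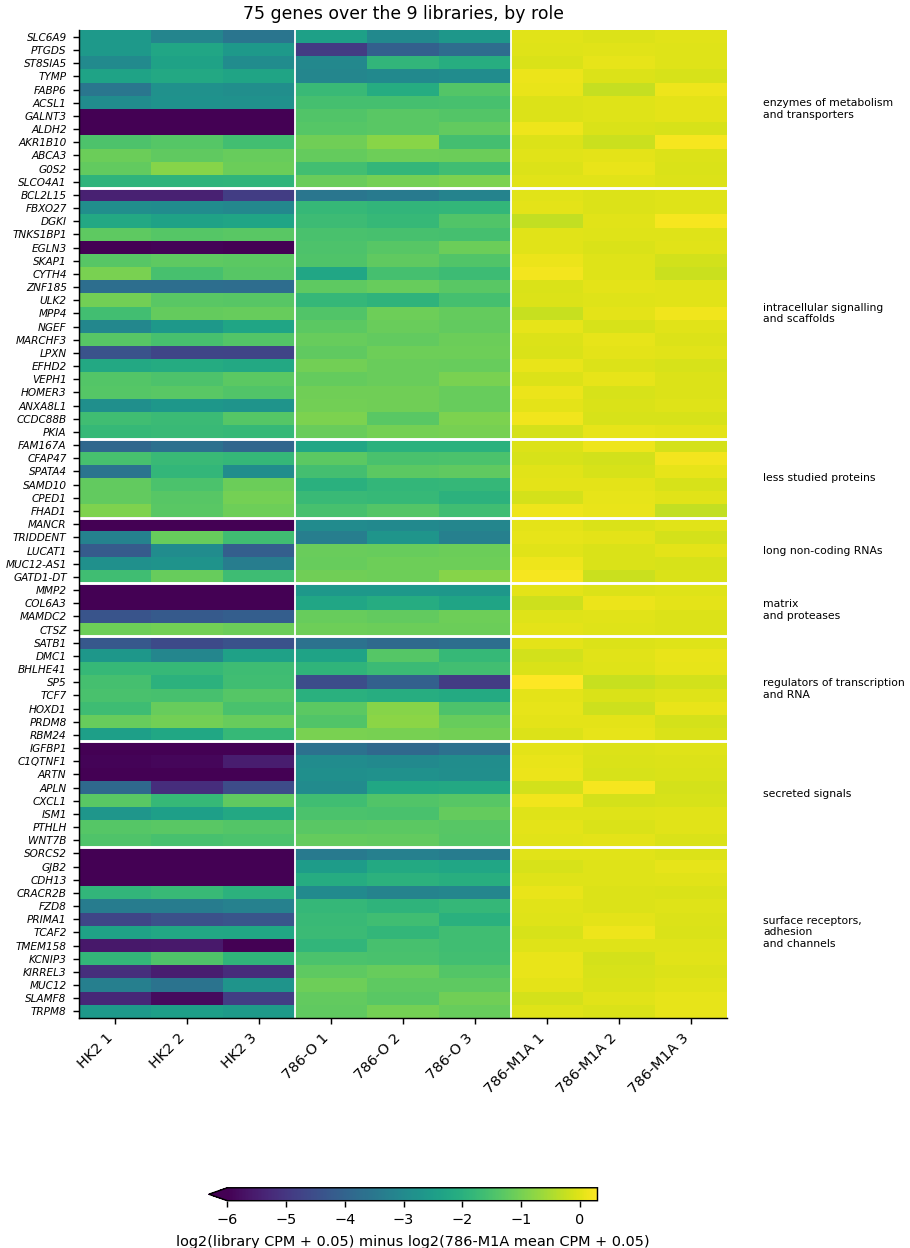
Each row is 1 of the 75 genes, grouped by role, and each column 1 of the 9 libraries. Colour is log2 of the CPM plus 0.05, less log2 of the mean CPM in 786-M1A plus 0.05, with values under -6 drawn as -6, so the 786-M1A columns lie near 0, the darkest cells are in HK2, and *SP5* and *PTGDS* are darkest in 786-O.

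Secreted signals formed a group of 8 genes, with a median of 4.21-fold over 786-O and 15.2-fold over HK2. In 786-O against HK2, 6 were higher, 1 did not pass and 1 was not tested. Of all genes tested, 41.6% were higher and 42.6% lower in this contrast. The role groups were formed after the values were seen. *IGFBP1* (NCBI gene 3484; chromosome 7, 45888488 to 45893660; GRCh38.p14) encodes a binding protein that holds insulin-like growth factors in the circulation, and it had the largest gap between 786-M1A and the next line. Its level was 110.0, 105 and 106 CPM in the 3 786-M1A libraries, 8.44, 7.26 and 8.44 in 786-O and 0.496, 0.359 and 0.22 in HK2. No library of a line came near another line, and the HK2 values rest on 15, 14 and 10 counts. The log2 fold change was 3.78 ± 0.062 over 786-O and 8.36 ± 0.10 over HK2, and 786-O exceeded HK2 by 4.59 ± 0.15, with an edgeR adjusted p of 2.14e-17. *ARTN*, artemin, a ligand of the GDNF family that signals through the RET receptor, was at 35.7, 30.9 and 31.5 CPM in the 3 786-M1A libraries, 4.43, 4.6 and 4.36 in 786-O and 0.0993, 0.282 and 0.198 in HK2. The HK2 level of *ARTN* rests on 3, 11 and 9 counts, and the 786-O libraries lay far above it (log2 fold change 4.49 ± 0.20, edgeR adjusted p = 5.02e-15). *C1QTNF1*, a secreted protein related to complement C1q and tumor necrosis factor, was at 40.1, 36.5 and 36.9 CPM in the 3 786-M1A libraries, 4.88, 4.65 and 4.98 in 786-O and 0.563, 0.589 and 0.794 in HK2. *APLN*, the apelin peptide that acts on vessels, was at 6.65, 8.44 and 6.78 CPM in the 3 786-M1A libraries, 0.9, 1.49 and 1.55 in 786-O and 0.463, 0.154 and 0.265 in HK2. Both showed the same order without overlap, with log2 fold changes of 786-M1A over 786-O of 3.01 ± 0.069 for *C1QTNF1* and 2.54 ± 0.17 for *APLN*.

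The other secreted signals stood at more even levels in 786-O and HK2. *PTHLH*, the parathyroid hormone-related protein that raises blood calcium in some cancers, was at 37.4, 34.6 and 36.5 CPM in the 3 786-M1A libraries, 14.6, 14.8 and 14.4 in 786-O and 13.9, 14.5 and 13.7 in HK2. Its 786-O and HK2 libraries overlapped, and their log2 fold change of 0.09 ± 0.057 did not pass (edgeR adjusted p = 0.16). *WNT7B*, a WNT ligand, was at 37.4, 37.9 and 35.1 CPM in the 3 786-M1A libraries, 16.2, 15.8 and 14.3 in 786-O and 13.6, 12.6 and 13.2 in HK2. *WNT7B* was higher in 786-O than in HK2 by 0.27 ± 0.065 on the log2 scale (edgeR adjusted p = 0.000678), beside 1.30 ± 0.058 from 786-O to 786-M1A. *ISM1*, isthmin, a secreted protein with a thrombospondin repeat, had means of 1.27, 2.68 and 7.08 CPM in HK2, 786-O and 786-M1A. It was the least even of these genes, higher in 786-O than in HK2 by 1.08 ± 0.15 on the log2 scale (edgeR adjusted p = 5.65e-07). *CXCL1*, a chemokine that attracts neutrophils, was not tested, at 2.39, 1.99 and 2.02 CPM in the 3 786-M1A libraries, 0.653, 0.771 and 0.811 in 786-O and 0.827, 0.589 and 0.882 in HK2.

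Among 4 matrix proteins and proteases were 3 of the 5 genes with the highest CPM in 786-M1A. *MMP2* (NCBI gene 4313; chromosome 16, 55478830 to 55506691), the gelatinase that cleaves type IV collagen, was at 719, 687 and 699.9 CPM in the 3 786-M1A libraries, 112, 113 and 110.4 in 786-O and 0.496, 0.384 and 0.507 in HK2. The log2 fold changes were 7.94 ± 0.074 for 786-O against HK2 (edgeR adjusted p = 8.95e-27) and 2.70 ± 0.037 for 786-M1A against 786-O, and the lines did not overlap. *COL6A3*, a chain of collagen VI, was at 1617, 1976 and 1859.7 CPM in the 3 786-M1A libraries, 377, 427 and 367 in 786-O and 4.2, 4.3 and 4.63 in HK2. The lines did not overlap for *COL6A3*, and its log2 fold changes were 6.50 ± 0.12 for 786-O against HK2 (edgeR adjusted p = 1.09e-11) and 2.27 ± 0.083 for 786-M1A against 786-O. *MAMDC2*, a secreted proteoglycan, had means of 3.47 ± 0.313, 29.6 ± 1.4 and 66.1 ± 1.19 CPM (SD, n = 3) in HK2, 786-O and 786-M1A. *CTSZ*, a lysosomal cysteine protease, was the gene of this group that did not pass between 786-O and HK2. *CTSZ* was at 1963, 1876 and 1854 CPM in the 3 786-M1A libraries, 889, 880.4 and 876 in 786-O and 897, 917 and 880.0 in HK2. Its 786-O and HK2 libraries overlapped (log2 fold change 0.01 ± 0.032, edgeR adjusted p = 0.836), and the log2 fold change of 786-M1A over 786-O was 1.16 ± 0.032. Per kb of the canonical transcript, *CTSZ* was at 1263 CPM in 786-M1A, above 99.8% of the genes tested, *MMP2* at 199.8 (97.6%) and *COL6A3* at 173 (97%). The summed fibroblast markers, given above and mostly *COL1A1*, were lowest in 786-M1A, where these matrix genes were highest.

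Surface receptors, adhesion molecules and channels numbered 13, with a median of 3.41-fold over 786-O and 26.1-fold over HK2. Of these, 11 were higher in 786-O than in HK2, 1 was lower and 1 did not pass. Of all genes tested, 41.6% were higher and 42.6% lower. *SORCS2*, a sorting receptor of the VPS10 family, was at 117, 116 and 111 CPM in the 3 786-M1A libraries, 10.8, 12.1 and 11.2 in 786-O and 1.75, 1.28 and 1.52 in HK2. *GJB2*, the gap junction protein connexin 26, was at 71.7, 75 and 79.4 CPM in the 3 786-M1A libraries, 13.1, 16.5 and 15.5 in 786-O and 0.861, 0.666 and 0.639 in HK2. Both genes rose from HK2 to 786-O, by 2.95 ± 0.10 (edgeR adjusted p = 1.7e-17) and 4.43 ± 0.13 (edgeR adjusted p = 4.25e-17), and their log2 fold changes from 786-O to 786-M1A were 3.39 ± 0.054 and 2.38 ± 0.066. *CDH13*, a cadherin anchored in the membrane by a lipid, was at 115, 114 and 117 CPM in the 3 786-M1A libraries, 26.9, 29.9 and 28 in 786-O and 0.331, 0.307 and 0.154 in HK2. It was nearly absent in HK2, with 10, 12 and 7 counts, and had the largest step from HK2 to 786-O after *MMP2*, 6.82 ± 0.12 (edgeR adjusted p = 2.34e-22). *KIRREL3*, an adhesion molecule of the immunoglobulin family, *TMEM158*, a membrane protein induced by RAS, *PRIMA1*, the membrane anchor of acetylcholinesterase, and *SLAMF8*, of the SLAM family known from myeloid cells, had means under 1 CPM in HK2 and of 14.7, 45.2, 7.16 and 8.49 CPM in 786-M1A. The step from 786-O to 786-M1A for these 4 genes lay between 2.31-fold (*SLAMF8*) and 3.47-fold (*PRIMA1*). The summed neural and neuroendocrine markers, given above, were also highest in 786-M1A, mostly through *TUBB3* and *NCAM1*, while *CHGB* was highest in HK2. The part of these markers in the levels of surface genes known from neurons, such as *SORCS2* and *KIRREL3*, was not tested.

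*TRPM8*, a cation channel that opens in the cold, had means of 2.98 ± 0.171, 7.96 ± 0.636 and 17.5 ± 0.7 CPM (SD, n = 3) in HK2, 786-O and 786-M1A. *FZD8*, a receptor for WNT ligands, was at 17.4, 16.8 and 17 CPM in the 3 786-M1A libraries, 4.84, 4.55 and 4.84 in 786-O and 1.62, 1.64 and 1.76 in HK2, again in the order HK2, 786-O, 786-M1A. *CRACR2B*, a calcium-sensing regulator of store-operated calcium entry, was the exception in this group. It was at 12.9, 11.7 and 11.6 CPM in the 3 786-M1A libraries, 1.49, 1.28 and 1.36 in 786-O and 3.28, 3.53 and 3.06 in HK2, and thus lowest in 786-O, with a log2 fold change against HK2 of -1.22 ± 0.13 (edgeR adjusted p = 1.15e-08). *KCNIP3*, a calcium-binding partner of potassium channels, did not pass between 786-O and HK2 (log2 fold change 0.21 ± 0.12, edgeR adjusted p = 0.0934), although it passed without HK2 library 2 (edgeR adjusted p = 0.00795). *MUC12*, a membrane mucin, and *TCAF2*, a partner of TRP channels, were low, with 3.65 and 3.43 CPM in 786-M1A.

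Regulators of transcription and RNA numbered 8. In 786-O against HK2, 2 were higher, 2 were lower, 3 did not pass and 1 was not tested. Of all genes tested, 41.6% were higher and 42.6% lower. *SATB1*, which organizes chromatin loops, was at 8.88, 8.33 and 8.45 CPM in the 3 786-M1A libraries, 0.653, 0.558 and 0.596 in 786-O and 0.397, 0.307 and 0.353 in HK2. It had the second largest gap of all 75 genes, with a smaller difference between the other lines (log2 fold change 0.82 ± 0.24 in 786-O against HK2, edgeR adjusted p = 0.00375) and a log2 fold change of 3.87 ± 0.12 from 786-O to 786-M1A. *SATB1* entered the test through 786-M1A. *SP5*, a zinc finger factor that WNT signaling induces in many tissues, was at 6.95, 4.86 and 5.22 CPM in the 3 786-M1A libraries, 0.203, 0.292 and 0.143 in 786-O and 1.89, 1.43 and 1.81 in HK2. This was the largest fold over 786-O, at 26.7, and *SP5*, which entered the test through 786-M1A, had the lowest log2 fold change of 786-O against HK2 (-2.97 ± 0.30, edgeR adjusted p = 1.22e-08). *TCF7*, a transcription factor that binds beta-catenin at WNT target genes, was at 40.7, 38.1 and 39.4 CPM in the 3 786-M1A libraries, 9.81, 9.3 and 8.85 in 786-O and 13.8, 13.5 and 15.3 in HK2. Like *SP5*, it was lowest in 786-O, at a log2 fold change of -0.58 ± 0.069 against HK2 (edgeR adjusted p = 8.76e-08), and its log2 fold change from 786-O to 786-M1A was 2.13 ± 0.062. *BHLHE41*, a repressor of the circadian clock, was at 20.4, 21.2 and 22.3 CPM in the 3 786-M1A libraries, 5.78, 6.54 and 7.01 in 786-O and 6.16, 6.2 and 6.7 in HK2, with overlapping 786-O and HK2 libraries (edgeR adjusted p = 0.625). *RBM24*, a splicing regulator, *HOXD1*, a homeobox factor, *PRDM8*, a zinc finger repressor, and *DMC1*, the recombinase of meiosis, had means of 14, 3.05, 2.59 and 1.94 CPM in 786-M1A.

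*WNT7B*, *FZD8* and *TCF7* were also members of a list of WNT ligands, modulators and response genes, in which 12 other genes were tested. In 786-M1A against 786-O, 4 of those 12 were higher, 5 were lower and 3 did not pass, with a median log2 fold change of -0.13, beside 27.9% higher and 28% lower (56% in either direction) of all genes tested. *LEF1*, of the same family of factors as *TCF7*, fell from 14.4 ± 0.213 CPM in 786-O to 0.214 ± 0.105 CPM in 786-M1A (SD, n = 3), or -5.99 ± 0.17, edgeR adjusted p = 1.88e-17, on the log2 scale. The ligand gene *WNT5A* fell by the same contrast, from 72.1 ± 4.05 to 28.1 ± 1.78 CPM (-1.31 ± 0.059, edgeR adjusted p = 2.53e-13), and so did the receptor gene *FZD2* (-0.83 ± 0.070, edgeR adjusted p = 1.73e-09). The 4 higher genes were *ZNRF3* (0.34 ± 0.048), *AXIN2* (0.26 ± 0.11), *FZD1* (0.25 ± 0.042) and *DKK3* (0.18 ± 0.039). In 786-M1A against HK2, 4 of the 12 were higher, 5 lower and 3 did not pass, beside 41.6% higher and 43.3% lower (84.9% in either direction) of all genes tested.

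The largest group was of 19 genes of intracellular signalling and scaffolds, with a median of 2.38-fold over 786-O and 3.40-fold over HK2. In 786-O against HK2, 14 were higher, 2 lower, 2 did not pass and 1 was not tested. Of all genes tested, 41.6% were higher and 42.6% lower. *BCL2L15*, a relative of the apoptosis regulator BCL2, was at 25.3, 24.6 and 25 CPM in the 3 786-M1A libraries, 2.14, 2.26 and 2.72 in 786-O and 0.53, 0.538 and 0.816 in HK2. It was the gene of this group with the largest gap, and its log2 fold changes were 1.91 ± 0.17 for 786-O against HK2 (edgeR adjusted p = 1.04e-09) and 3.45 ± 0.088 for 786-M1A against 786-O. *EGLN3*, a prolyl hydroxylase that acts on HIF and is itself induced by it, was at 125, 119 and 125 CPM in the 3 786-M1A libraries, 44.9, 48.6 and 57.1 in 786-O and 1.85, 1.97 and 1.48 in HK2. The larger part of its difference lay between HK2 and 786-O (4.87 ± 0.11, edgeR adjusted p = 5.92e-16), with 1.35 ± 0.066 from 786-O to 786-M1A. *LPXN*, leupaxin, an adaptor of focal adhesions of the paxillin family, was at 101, 109 and 106 CPM in the 3 786-M1A libraries, 44.8, 49.2 and 49.5 in 786-O and 4.96, 4.02 and 3.99 in HK2. *EFHD2*, a calcium-binding protein of the actin cytoskeleton, was at 577, 529 and 508 CPM in the 3 786-M1A libraries, 261, 242 and 241 in 786-O and 118, 123 and 117 in HK2. *TNKS1BP1*, which binds the enzyme tankyrase, was at 269, 266 and 264 CPM in the 3 786-M1A libraries, 94, 92.3 and 89.7 in 786-O and 110.3, 103 and 106 in HK2. Of these 3, *LPXN* and *EFHD2* followed the order HK2, 786-O, 786-M1A (786-O against HK2 3.52 ± 0.071, edgeR adjusted p = 3.68e-21, and 1.09 ± 0.046, edgeR adjusted p = 5.11e-15), and *TNKS1BP1* was slightly lower in 786-O than in HK2 (-0.18 ± 0.038, edgeR adjusted p = 0.000196).

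Other members of the signalling group included *ZNF185*, a LIM domain protein of actin filaments (13.7-fold over HK2 and 2.38-fold over 786-O), *NGEF*, an exchange factor downstream of ephrin receptors (6.6-fold and 2.35-fold), and *ANXA8L1*, an annexin (6.79-fold and 2.14-fold). All 3 were higher in 786-O than in HK2. *ULK2*, a kinase that starts autophagy, was lower in 786-O than in HK2 (-0.47 ± 0.11, edgeR adjusted p = 0.000407), with means of 4.76 ± 0.551, 3.31 ± 0.425 and 11.2 ± 0.223 CPM (SD, n = 3) in HK2, 786-O and 786-M1A. *SKAP1* and *CYTH4*, an adaptor and an ARF exchange factor best known from leukocytes, were at 13 and 2.04 CPM in 786-M1A, in libraries without *PTPRC*. *FBXO27*, *DGKI*, *MPP4*, *MARCHF3*, *VEPH1*, *HOMER3*, *CCDC88B* and *PKIA* made up the rest of the group, with folds over 786-O between 2.08 (*PKIA*, an inhibitor of protein kinase A) and 3.58 (*FBXO27*, a substrate receptor of a ubiquitin ligase).

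*EGLN3* also belonged to a list of HIF target genes, in which 16 others were tested. Of these, 10 were higher and 5 lower in 786-O than in HK2, with a median log2 fold change of 1.84, beside 41.6% higher and 42.6% lower of all genes tested. In 786-M1A against 786-O, 11 were higher, 2 lower and 3 not called, with a median of 0.34, beside 27.9% and 28%. The larger steps from 786-O to 786-M1A were those of *LOX*, a crosslinker of collagen (2.61 ± 0.372 to 13.2 ± 0.801 CPM, SD, n = 3; log2 fold change 2.39 ± 0.094, edgeR adjusted p = 4.52e-15), *VEGFA*, the endothelial growth factor (1.02 ± 0.043, edgeR adjusted p = 1.51e-14), and *ADM*, adrenomedullin (0.95 ± 0.052, edgeR adjusted p = 1.34e-12). The level of *LOX* in HK2 was 44.7 ± 2.32 CPM. In 786-M1A against HK2, 10 of the 16 were higher, 4 were lower and 2 did not pass, beside 41.6% higher and 43.3% lower of all genes tested.

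Enzymes of metabolism and transporters numbered 12. In 786-O against HK2, 4 were higher (*GALNT3*, *ALDH2*, *ACSL1* and *SLCO4A1*), 3 were lower (*PTGDS*, *TYMP* and *G0S2*), 2 did not pass and 3 were not tested. Of all genes tested, 41.6% were higher and 42.6% lower. *PTGDS*, which makes prostaglandin D2, was at 4.77, 4.88 and 4.76 CPM in the 3 786-M1A libraries, 0.113, 0.239 and 0.31 in 786-O and 0.761, 0.947 and 0.75 in HK2. *PTGDS* entered the test through 786-M1A. It was lowest in 786-O, at a log2 fold change of -1.86 ± 0.29 against HK2 (edgeR adjusted p = 3.53e-06), and its step from 786-O to 786-M1A was 4.49 ± 0.19. *TYMP*, thymidine phosphorylase, which splits thymidine and promotes vessel growth, was at 33.3, 30.3 and 28.9 CPM in the 3 786-M1A libraries, 3.56, 3.8 and 4.01 in 786-O and 5.99, 6.66 and 6.11 in HK2. It too was lower in 786-O than in HK2 (-0.69 ± 0.094, edgeR adjusted p = 6.32e-07), and *G0S2*, an inhibitor of the lipase that breaks down stored fat, was lower too, at -0.61 ± 0.091 (edgeR adjusted p = 3.24e-06). *SLC6A9*, a glycine transporter, was at 4.72, 4.51 and 4.68 CPM in the 3 786-M1A libraries, 0.833, 0.532 and 0.692 in 786-O and 0.728, 0.487 and 0.353 in HK2. Like *PTGDS*, *SLC6A9* entered the test through 786-M1A. The 786-O and HK2 libraries of *SLC6A9* overlapped and the difference did not pass (0.51 ± 0.26, edgeR adjusted p = 0.0752), although it passed without 786-O library 2 (edgeR adjusted p = 0.0342) or HK2 library 1 (edgeR adjusted p = 0.0157).

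The enzymes that were higher in 786-O than in HK2 were led by *GALNT3*, which starts the O-glycosylation of mucins, at 71.2, 73.1 and 75.1 CPM in the 3 786-M1A libraries, 27.6, 29.4 and 28 in 786-O and 0.397, 0.589 and 0.595 in HK2. *ALDH2*, the mitochondrial aldehyde dehydrogenase, had means of 0.296 ± 0.0542, 12.1 ± 0.73 and 29.6 ± 2.65 CPM (SD, n = 3) in HK2, 786-O and 786-M1A. For both the step from HK2 to 786-O, 5.73 ± 0.10 and 5.36 ± 0.15 (edgeR adjusted p = 2.03e-22 and 1.23e-18), was larger than the step from 786-O to 786-M1A, 1.42 ± 0.047 and 1.35 ± 0.068. *ACSL1*, which activates long-chain fatty acids, was at 83.3, 85 and 87.9 CPM in the 3 786-M1A libraries, 28.8, 29.2 and 29.3 in 786-O and 11.2, 12.3 and 12.1 in HK2. *SLCO4A1*, an organic anion transporter, was at 138 ± 3 CPM in 786-M1A (SD, n = 3), and *ABCA3*, a lipid transporter, at 61.7 ± 1.66. *ST8SIA5*, a sialyltransferase, *FABP6*, a carrier of bile acids, and *AKR1B10*, an aldo-keto reductase, were below the filter, at 1.67, 2.44 and 1.46 CPM in 786-M1A. *ALDH2* was on a list of aldehyde and retinoid enzymes, of which 12 other genes were tested. In 786-M1A against 786-O 2 were higher, 6 were lower and 4 did not pass, with a median log2 fold change of -0.10, beside 27.9% higher and 28% lower of all genes tested.

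Of the 75 genes, 5 were long non-coding RNAs (6.67%, against 2.59% of the genes tested). *MANCR*, known from breast cancer cells, was at 79.3, 73.5 and 78.1 CPM in the 3 786-M1A libraries, 9.93, 9.54 and 8.94 in 786-O and 0.265, 0.282 and 0.485 in HK2. Its steps were 4.75 ± 0.14 from HK2 to 786-O (edgeR adjusted p = 3.89e-18) and 3.07 ± 0.060 from 786-O to 786-M1A, and per kb of its short transcript it stood at 171 CPM in 786-M1A, above 96.9% of the genes tested. *LUCAT1*, a stress-induced RNA, and *MUC12-AS1*, which lies antisense to *MUC12*, had means of 2.69 and 2.89 CPM in 786-M1A and were higher in 786-O than in HK2 (2.78 ± 0.28 and 2.04 ± 0.22, edgeR adjusted p = 7.84e-09 and 2.26e-08). Both entered the test through 786-M1A. *TRIDDENT* was at 1.39, 1.38 and 1.23 CPM in the 3 786-M1A libraries, 0.09, 0.159 and 0.0954 in 786-O and 0.0993, 0.563 and 0.397 in HK2. *TRIDDENT* was not tested, and its HK2 libraries, with 3, 22 and 18 counts, overlapped with those of 786-O. *GATD1-DT* also entered the test through 786-M1A. It passed between 786-O and HK2 (0.51 ± 0.20, edgeR adjusted p = 0.0234), but not without 786-O library 3, HK2 library 1 or HK2 library 3 (edgeR adjusted p = 0.086, 0.0711 and 0.113).

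Promoter sequence was a feature that the rule did not use. RefSeq promoter windows, from 250 bases before a listed start to 50 after it (GRCh38.p14), were at hand for 56 of the 75 genes. At the first start listed for each gene, 6 sets of letters were searched on both strands. The letters of an AP-1 site with any base in the middle, TGANTCA, occurred in 9 of the 56 windows (16.1%). The share was 4.47% of 10191 windows of genes tested and 7.76% of all 27305 windows. With any listed start of a gene the share was 17.9% against 6.98% of genes tested. The 9 genes were *FHAD1*, *LPXN*, *LUCAT1*, *MANCR*, *MUC12-AS1*, *SLAMF8*, *TRIDDENT*, *VEPH1* and *ZNF185*, which included 4 of the 5 long non-coding RNAs. The windows of these 9 genes were poor in CG dinucleotides, with a median of 5, against 21.5 over the 56 windows and 27 over genes tested, and the part of this composition in the share was not tested. The core letters of a hypoxia response element, ACGTG, were in 10.7% of the windows against 27.2% of genes tested. ACGTG is contained in the E-box letters CACGTG (7.14% against 10.5%). The TEAD letters GGAATG were in 10.7% against 10.7%, the ETS letters GGAAGT in 25% against 27.7%, and the TATA letters TATAAA in 10.7% against 5.24%. A match is a description of the letters and not of binding. No window was at hand for *AKR1B10*, *ALDH2*, *C1QTNF1*, *CCDC88B*, *CDH13*, *CRACR2B*, *CYTH4*, *FAM167A*, *IGFBP1*, *ISM1*, *MMP2*, *PKIA*, *SAMD10*, *SKAP1*, *SLCO4A1*, *SORCS2*, *ST8SIA5*, *TNKS1BP1* and *WNT7B*.

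The windows with AP-1 letters are shown because AP-1 had, of the 6 sets and at the first listed start, the largest share in these genes relative to that of genes tested. The 250 bases before the start are given for *MANCR* (chr10:4678071-4678320, minus strand), which has a pair of matches, for *SLAMF8* (chr1:159826623-159826872, plus strand) and for *LPXN* (chr11:58578134-58578383, minus strand), on GRCh38.p14 and 5′ to 3′, with the AP-1 letters in capitals.
MANCR: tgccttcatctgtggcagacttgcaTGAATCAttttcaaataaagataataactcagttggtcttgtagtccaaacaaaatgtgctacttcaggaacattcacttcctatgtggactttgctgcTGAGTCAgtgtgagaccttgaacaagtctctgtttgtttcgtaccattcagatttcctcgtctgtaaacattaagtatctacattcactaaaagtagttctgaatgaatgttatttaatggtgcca
SLAMF8: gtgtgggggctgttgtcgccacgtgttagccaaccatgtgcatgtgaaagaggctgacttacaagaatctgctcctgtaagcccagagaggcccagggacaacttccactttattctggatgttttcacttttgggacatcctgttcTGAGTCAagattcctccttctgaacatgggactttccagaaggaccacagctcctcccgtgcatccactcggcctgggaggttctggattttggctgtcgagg
LPXN: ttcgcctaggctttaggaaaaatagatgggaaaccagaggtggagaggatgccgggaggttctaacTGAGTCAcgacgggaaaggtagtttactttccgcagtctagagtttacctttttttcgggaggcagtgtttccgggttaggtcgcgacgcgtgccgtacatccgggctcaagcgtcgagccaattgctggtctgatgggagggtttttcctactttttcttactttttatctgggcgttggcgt
Shorter stretches, with 20 bases on each side of the match, are given for *FHAD1* (chr1:15246980-15247026, plus strand), *LUCAT1* (chr5:91314428-91314474, minus strand), *MUC12-AS1* (chr7:101017645-101017691, minus strand), *TRIDDENT* (chr16:3950502-3950548, minus strand) and *VEPH1* (chr3:157503443-157503489, minus strand).
FHAD1: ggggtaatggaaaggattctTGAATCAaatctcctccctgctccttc
LUCAT1: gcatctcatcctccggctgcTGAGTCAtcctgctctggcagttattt
MUC12-AS1: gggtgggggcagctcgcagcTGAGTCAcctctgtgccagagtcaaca
TRIDDENT: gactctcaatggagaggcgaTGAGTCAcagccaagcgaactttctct
VEPH1: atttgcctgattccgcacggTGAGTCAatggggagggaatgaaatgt
The first match began 225 bases before the listed start in *MANCR*, 184 in *LPXN*, 103 in *SLAMF8*, 84 in *TRIDDENT*, 63 in *MUC12-AS1*, 53 in *VEPH1* and 52 in *LUCAT1*. The match in *FHAD1* lay 223 bases before its listed start, and that in *ZNF185*, not shown, lay after the listed start. The first match in *MANCR* and that in *FHAD1* read TGAATCA, and the other matches shown read TGAGTCA. The listed starts of *FHAD1*, *LPXN*, *VEPH1* and *ZNF185* lie inside the RefSeq span of the gene, and so do the matches of these genes.

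After the values were seen, the letters CTTTGAT, a core that TCF factors bind, and those of a form of the NF-kappaB site, GGGA and TTCC with 2 bases between, were searched too. Each was in 2 of the 56 windows (3.57%, against 1.35% and 1.54% of genes tested), the first in *MPP4* and *SP5* and the second in *CXCL1* and *SLAMF8*. The stretch of *SP5* (chr2:170715208-170715254, plus strand, GRCh38.p14), the gene with the largest fold over 786-O, and that of *CXCL1* (chr4:73869294-73869344, plus strand), where a pair of matches on opposite strands overlap, are shown with the letters in capitals.
SP5: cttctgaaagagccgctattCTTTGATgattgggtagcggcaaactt
CXCL1: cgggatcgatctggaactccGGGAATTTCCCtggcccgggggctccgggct

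**Figure D4:**
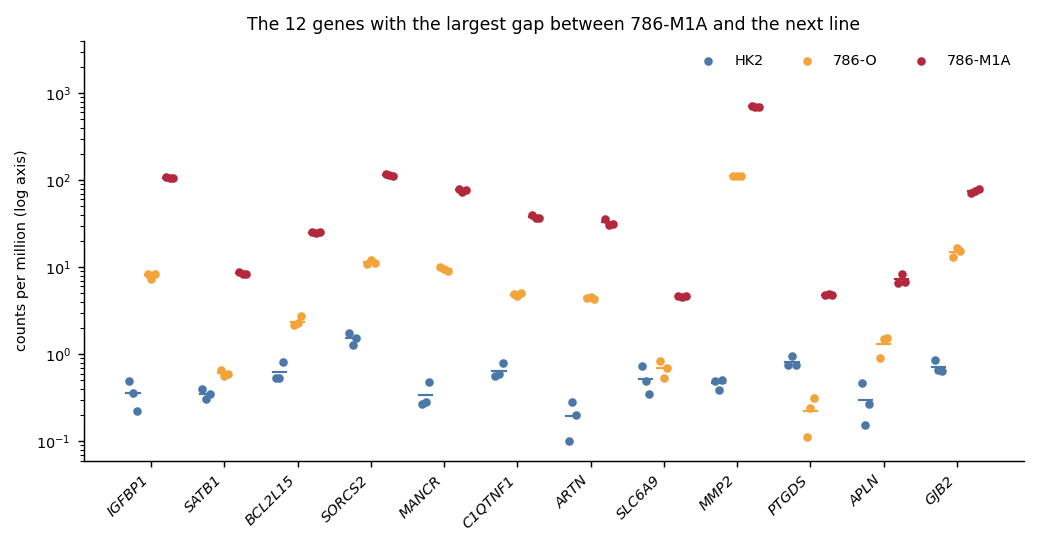
CPM (vertical, log axis) in each of the 9 libraries for the 12 genes with the largest gap between 786-M1A and the next line, with bars at the mean of 3 libraries. The 786-M1A points lie above all others in each gene, 786-O lies above HK2 for most, and *PTGDS* is the gene with 786-O below HK2.

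*CXCL1* was on a list of NF-kappaB response genes, in which 14 other genes were tested. In 786-M1A against 786-O, 12 of the 14 were higher, 0 were lower and 2 did not pass, with a median log2 fold change of 0.60, beside 27.9% higher and 28% lower of all genes tested. At an unadjusted p under 0.05, 0 of the 14 were lower in edgeR, 0 in DESeq2 and 1 in limma. The genes with the largest steps were *CXCL8*, a chemokine of the same family (0.757 ± 0.169 to 2.75 ± 0.302 CPM, SD, n = 3; 1.89 ± 0.21, edgeR adjusted p = 1.35e-06), *BIRC3*, an inhibitor of apoptosis (0.93 ± 0.078, edgeR adjusted p = 1.94e-07), and *RELB*, a subunit of NF-kappaB (0.92 ± 0.063, edgeR adjusted p = 5.13e-11). Against HK2, 7 genes of the list were higher, 6 were lower and 1 was not called, beside 41.6% higher and 43.3% lower of all genes tested, and *CXCL8* stood at 266 ± 25 CPM in HK2. The libraries of *CXCL1* itself overlapped between HK2 and 786-O.

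*MMP2* was on a list of mesenchymal and epithelial state genes, of which 19 others were tested. In 786-M1A against 786-O, 8 were higher, 7 were lower and 4 did not pass, beside 27.9% higher and 28% lower of all genes tested, which also stand beside the counts of the lists that follow. The epithelial genes *KRT19*, a keratin (5.92 ± 0.0827 to 180.2 ± 19.5 CPM, SD, n = 3; 4.98 ± 0.078, edgeR adjusted p = 4.82e-18), and *EPCAM*, an adhesion molecule (3.95 ± 0.14, edgeR adjusted p = 1.02e-15), rose, and *CDH11*, a mesenchymal cadherin, fell (-3.20 ± 0.14, edgeR adjusted p = 2.76e-14). Other genes of both kinds went the other way, chosen here after their values were seen: the epithelial gene *CRB3* (-0.68 ± 0.10, edgeR adjusted p = 4.07e-06) fell, and the mesenchymal genes *FN1* (1.28 ± 0.12, edgeR adjusted p = 7.3e-05), *VIM* (0.43 ± 0.030, edgeR adjusted p = 8.64e-11) and *CDH2* (0.20 ± 0.037, edgeR adjusted p = 0.000138) rose. Also called were the epithelial genes *CLDN1* (0.78 ± 0.052), *KRT8* (0.35 ± 0.043) and *KRT18* (0.18 ± 0.037), which rose. The mesenchymal genes *SNAI1* (-0.44 ± 0.062), *SNAI2* (-0.32 ± 0.044), *SPARC* (-0.19 ± 0.033) and *ZEB2* (-0.19 ± 0.047) fell. *CDH1*, the epithelial cadherin, was called lower too (-2.92 ± 1.06, edgeR adjusted p = 0.0243). It was close to 0 in both lines, with 0.0934 ± 0.0839 CPM for 786-O and 0.00894 ± 0.0155 for 786-M1A (SD, n = 3), against 4.65 ± 0.203 CPM in HK2. The list of TGF-beta response genes held none of the 75 and had 4 genes higher, 10 lower and 4 not called of 18, with *COL1A1*, a chain of collagen I, at -4.15 ± 0.10, edgeR adjusted p = 2.7e-10. Of the lists of MAPK feedback and response genes (19 tested), YAP and TEAD response genes (20) and NOTCH pathway genes (13), which held none of the 75 either, 7, 9 and 2 genes were higher and 6, 7 and 6 lower in 786-M1A than in 786-O.

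**Figure D5:**
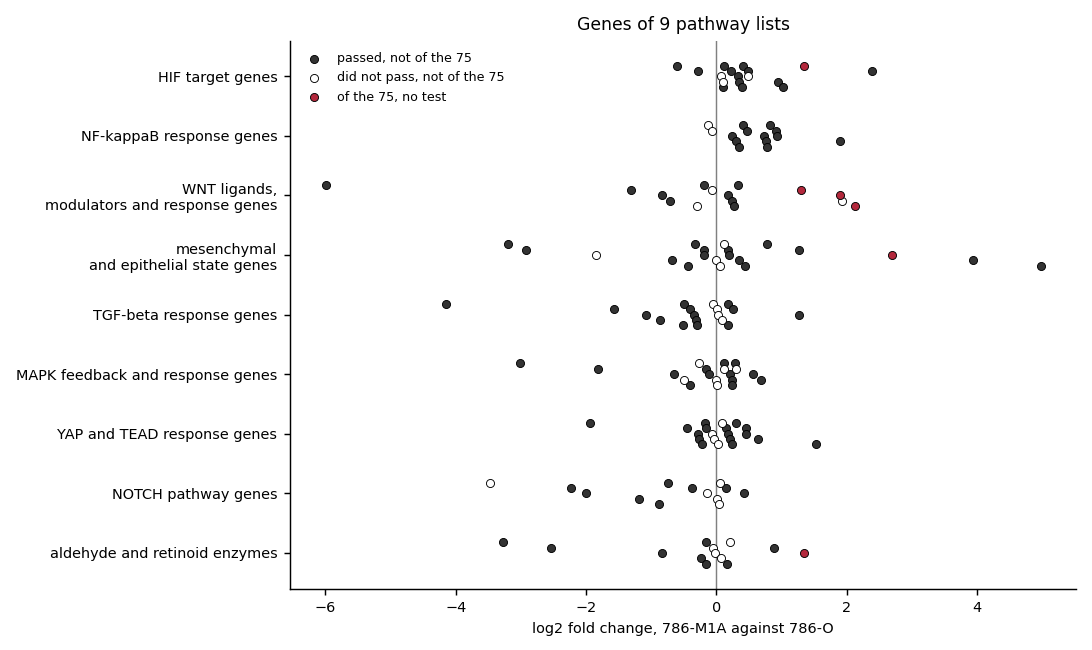
Log2 fold change of 786-M1A against 786-O (horizontal) for the tested genes of 9 pathway lists (vertical, 1 row each). Filled dark points passed the threshold, open points did not, and red points are among the 75 genes and were not tested. The NF-kappaB row has 12 dark points right of 0 and none left of it, and *LEF1* in the WNT row lies farthest left, at -5.99.

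The 6 proteins of less studied function were *FAM167A*, *CFAP47*, *SPATA4*, *SAMD10*, *CPED1* and *FHAD1*. *FAM167A* was at 11.8, 13.3 and 11.1 CPM in the 3 786-M1A libraries, 2.48, 3.06 and 3.05 in 786-O and 0.761, 0.896 and 0.75 in HK2, higher in 786-O than in HK2 (1.86 ± 0.17, edgeR adjusted p = 8.48e-10). *SAMD10* and *CPED1* were instead lower in 786-O than in HK2, with log2 fold changes of -0.61 ± 0.12 and -0.61 ± 0.11 (edgeR adjusted p = 5.17e-05 and 4.05e-05). *CFAP47*, *SPATA4* and *FHAD1* were not tested and had means of 1.83, 2.14 and 1.8 CPM in 786-M1A.

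The 75 genes were spread over 21 chromosomes, with 8 on chromosome 2 (10.7%, against 6.92% of genes tested) and 7 each on chromosomes 1 and 7. Within 1 Mb of each other lay 4 pairs. *FHAD1* and *EFHD2* on chromosome 1 have lower coordinates 173 kb apart with no tested gene between them. *ARTN* and *SLC6A9*, also on chromosome 1, lie 62.7 kb apart by the same measure with 5 tested genes between, of which 2 were higher in 786-M1A than in 786-O and 0 lower. *GATD1-DT* and *CRACR2B* on chromosome 11 lie 48.6 kb apart with 4 tested genes between, 0 higher and 1 lower. *MUC12* and *MUC12-AS1* on chromosome 7 overlap on opposite strands. Since the use of the strand in counting is not given in the sources used here, reads cannot be told apart between these and other overlapping pairs: *CTSZ* and *NELFCD*, *TCF7* and *SKP1*, *HOXD1* and *HAGLR*, *SLC6A9* and *CCDC24*, *FHAD1* and *FHAD1-AS1*, *SLAMF8* and *SNHG28*, *VEPH1* and *PTX3*, and *BHLHE41* and *SSPN* on opposite strands, and *SATB1* and *TBC1D5*, and *TYMP* and *SCO2*, on the same strand. *ANXA8L1*, *TCAF2* and *AKR1B10* have near-identical relatives, with which reads may have been divided.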

How the data were processed

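RNA from HK2, 786-O and 786-M1A, 3 libraries each, was sequenced by the authors from TruSeq Stranded mRNA libraries, and they deposited whole-number counts per NCBI gene, without normalization, from Rsubread (featureCounts per the labels) on GRCh38. The version of the annotation is not given in the sources used here. All 9 columns of counts were used. Counts were fitted with edgeR 4.0.16 in R 4.3.3 (TMM normalization, robust quasi-likelihood, a coefficient per line, 12695 genes tested, whose counts averaged 50 or more), and the code was tested on simulated data. Symbols and positions came from RefSeq GRCh38.p14 (27745 of 28395 identifiers matched), and transcript lengths and overlaps from GENCODE 44. DESeq2 1.42.0 and limma 3.58.1 served as alternatives, as did other normalizations, filters and left-out libraries. The authors' own filter, log2 transformation and VSN are not part of the deposited counts, and VSN was not used here.

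Every library is given for the 12 genes with the largest log2 CPM gap (prior count 2), the 5 with the highest CPM in 786-M1A and genes that carry a role group. From a list, up to 3 other called genes with the largest log2 fold change were named. Further called genes were named for the WNT list and for the mesenchymal and epithelial list. The 75 genes, the 9 pathway lists and the 5 marker lists were chosen with earlier results of these data known, and the role groups, the promoters shown and 2 sets of letters after the values were seen.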

Additional observations from a re-analysis of the deposited data

How the results depend on the processing

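The number of genes that met the rule was 83, 84 and 82 on library totals corrected by TMM, RLE and upper-quartile factors, each of which held all 75. It was 75 (73 shared) with the median of the 3 libraries, 56 when the lowest 786-M1A library had to exceed the highest of each other line 2-fold, 108 without the count in HK2, 64 with a mean of at least 100 counts, and 72 to 79 with 1 library left out. Of 900 alternative values of the tested genes in 786-M1A against 786-O, all moved by less than the spread between libraries, and in 786-M1A against HK2 3 of 900 moved by more (*SLCO4A1* and *TNKS1BP1*). In 786-O against HK2, the number higher stayed between 44 and 48 and the number lower between 10 and 11 in all alternatives but that of 10 or more counts in each library, which tests fewer of these genes (37 and 9). The sign of uncalled differences turned for *CTSZ* (-0.0346 with upper-quartile factors, -0.00658 with 10 or more counts in each library, and -0.00275 to 0.0193 with 1 library left out, below 0 without 786-O library 1, at -0.00148, or HK2 library 3), *PRDM8* (-0.00495 with upper-quartile factors, -0.139 to 0.175 with 1 library left out, below 0 without 786-O library 2), *BHLHE41* (-0.0161 to 0.119, below 0 without 786-O library 3), *MPP4* (-0.0123 to 0.185, below 0 without HK2 library 1) and *SKAP1* (0.0101 with limma). With limma, *PTHLH*, *ABCA3* and *KCNIP3* passed. Of the list counts, that of NOTCH genes higher in 786-M1A than 786-O fell from 2 to 1 with upper-quartile factors, with no filter, with a fit of the 2 lines compared, with DESeq2 and with 4 of the libraries left out in turn (1 to 2), and that of WNT genes lower than HK2 fell from 5 to 3 with 10 or more counts in each library.

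The labels link same-numbered libraries by a number only. The correlation of their deviations was -0.0285 to -0.0573 for 786-O and HK2 and -0.167 to 0.0376 for 786-M1A and HK2. For 786-M1A and 786-O it was above 0 throughout, at 0.074 to 0.215. A block on the replicate number left 10688, 7157 and 10797 genes called in 786-O against HK2, 786-M1A against 786-O and 786-M1A against HK2 (10693, 7103 and 10784 without it), and 45 and 10 of the genes described were higher and lower in 786-O than in HK2, as without it. With 3 libraries per line, differences of genes under 1 CPM rest on few reads.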
